A study of Mus musculus with 23 samples.

Results

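Met1-iRFP breast tumours grown in FVB mice were sorted into cells that carry the near-infrared fluorescent protein iRFP, labelled cancer cells, and cells that lack it, labelled TME (tumour microenvironment) cells. The Met-1 line was derived from a mammary carcinoma of a mouse carrying MMTV-PyMT, a transgene that drives the polyoma middle T protein in mammary epithelium. The comparison described here is between the 2 sorts from sedentary mice: 8 libraries of iRFP+ cells and 4 libraries of iRFP- cells, 12 of the 23 libraries in all. The remaining 11 libraries, 7 of cancer cells and 4 of TME cells, come from exercised mice. Libraries were assigned to the sorts by their labels alone, and no measured value was used. All mice bore the same tumour line on the same inbred background, so no library represents tissue without a tumour. The TME gate is defined by the absence of a reporter and is therefore a mixture of cell types by construction. The age and sex of the mice, the tumour site and whether each library is a separate animal are not stated in the labels, so the p-values measure the spread between these libraries. Polyadenylated RNA was sequenced and counted per gene.

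A mammary carcinoma contains malignant epithelial cells together with macrophages, neutrophils, mast cells, lymphocytes, fibroblasts, pericytes and blood vessels. Macrophages and dendritic cells take up material and display peptides on MHC class II molecules, whose genes are switched on together through a conserved promoter module that includes a Y box, a form of the CCAAT box. Carcinoma cells can keep epithelial keratins and cadherins or can take on mesenchymal genes such as vimentin and the collagens, in which case mesenchymal genes no longer separate them from fibroblasts. In bulk RNA from a sort, fewer cells of a type and less RNA per cell cannot be told apart.

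Total counts ran from 15924340 to 25563245 in the cancer libraries and from 16307545 to 35958441 in the TME libraries. The first principal component held 49.3% of the variance and separated the 2 sorts. Mitochondrially encoded genes took 2.80% to 3.90% of counts in the cancer libraries, and 42.2%, 14.5%, 3.22% and 6.57% in TME libraries 4, 6, 9 and 10. TME library 4 also stood apart on the second component and cancer library 4 on the third. Values for the 4 TME libraries are given below in the order 4, 6, 9, 10, in CPM, the count relative to library depth scaled by edgeR's trimmed mean of M values (TMM). Values for the 8 cancer libraries are given as the lowest, the median and the highest. Fold changes are log2, cancer relative to TME, with their standard error (SE). Adjusted p-values come from edgeR's quasi-likelihood test with Benjamini-Hochberg adjustment over all tested genes, and a gene was called at 0.05.

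The 2 sorts differed at many genes but not in the same way on the 2 sides. Of 16071 genes tested, 6226 (38.7%) were called: 2988 (18.6%) were higher in the cancer libraries and 3238 (20.1%) were lower. All 8 cancer libraries lay above all 4 TME libraries for 1644 genes (10.2%), and all 4 TME libraries lay above all 8 cancer libraries for 1828 genes (11.4%). Among the 12154 genes whose mean log2 CPM reached 1, 176 called genes were more than 2-fold higher in cancer cells and 770 were more than 2-fold lower. Past 4-fold the counts at that level were 0 and 458, and past 8-fold 0 and 322. Over all tested genes, those with few counts included, 65 were called more than 4-fold higher and 889 more than 4-fold lower, and past 8-fold 25 and 584. The median log2 fold change over all tested genes was -0.01. The highest value among the genes with that mean level was 1.99, for Slco1a5, and the lowest was -7.67, for Gpihbp1. No gene of that mean level was therefore called past 4-fold on the cancer side, whereas many genes of the TME sort were nearly absent from the cancer sort.

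**Figure D1:**
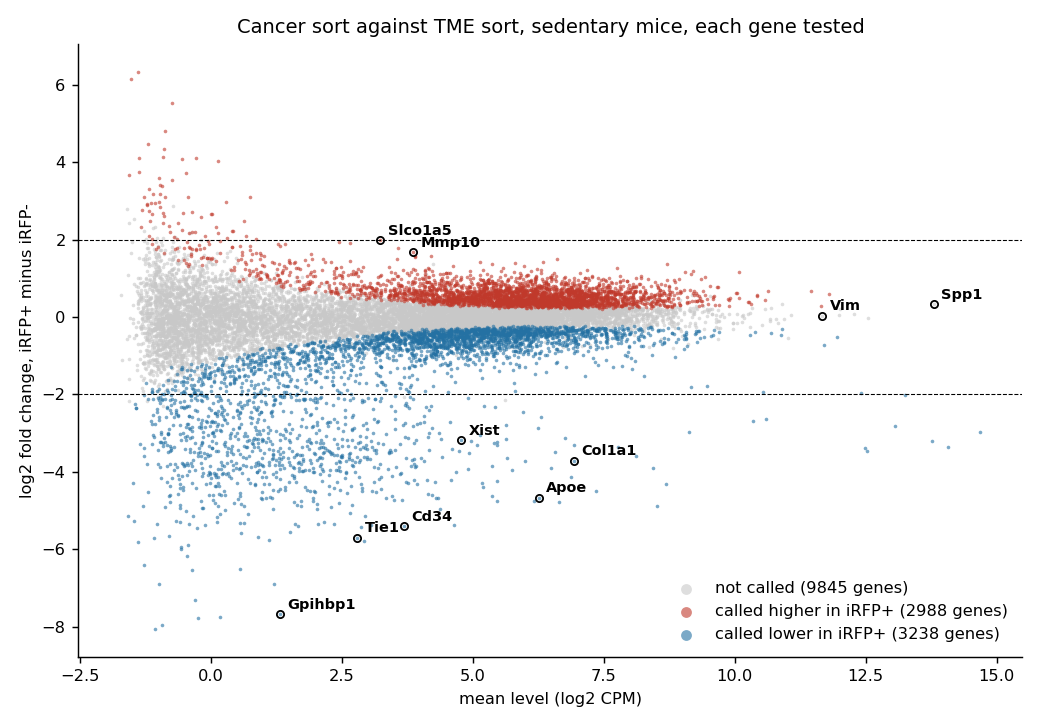
Log2 fold change (cancer relative to TME, y axis) against mean log2 CPM (x axis) for each of the 16071 tested genes, with genes called higher or lower in cancer cells coloured. The cloud reaches down to -7.67 among genes whose mean log2 CPM reached 1 and up to 1.99 among them.

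The epithelial label of the cancer sort was checked first. Epcam, the epithelial adhesion molecule, stood at 0.605, 1.19 and 2.21 CPM (lowest, median, highest) in cancer libraries and at 1.52, 2.44, 1.39 and 0.0902 CPM in TME libraries. The groups overlapped, and the difference did not pass the test (log2 fold change -0.08 ± 0.53, adjusted p = 0.924). The simple-epithelial keratins Krt8, Krt19 and Krt7, the tight junction proteins Cldn4 and Cldn7, the epithelial splicing factor Esrp1 and the luminal factor Elf5 were all at or near 0 in both sorts. Wfdc2, another gene of the epithelial list, was abundant in both sorts. It stood at 235, 311 and 406 CPM in cancer libraries and at 406, 384, 242 and 422 CPM in TME libraries, overlapping and not called. Of the 18 epithelial and luminal genes listed, 8 had enough counts to be tested, 0 were higher in cancer cells and 1 was lower. After correction for GC content and length, 3 of 8 were higher and 1 lower. Without TME library 4, 1 of 9 was higher and 1 lower. The gene called lower with all libraries and no correction was Cdh1, which encodes E-cadherin. It stood at 0, 0.331 and 1.66 CPM in cancer libraries against 3.23, 3.18, 2.97 and 2.30 CPM in TME libraries, with no overlap and a log2 fold change of -2.42 ± 0.58 (adjusted p = 0.00263).

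Some mesenchymal genes had like levels in both sorts, while others, given further on, were lower in the cancer sort. Vim, the intermediate filament protein vimentin, stood at 2990, 3180 and 4310 CPM in cancer libraries and at 3210, 3200, 3170 and 3300 CPM in TME libraries. The ranges overlapped (log2 fold change 0.03 ± 0.11, adjusted p = 0.863). Pdgfrb, a growth factor receptor often used to mark fibroblasts and pericytes, had 184, 256 and 321 CPM in cancer libraries and 232, 236, 271 and 306 CPM in TME libraries, again overlapping (adjusted p = 0.892). Krt18, a keratin of simple epithelium, had 67.7, 90.9 and 115 CPM against 77.3, 67.9, 51.7 and 101 CPM (adjusted p = 0.204). Sox9, a transcription factor of mammary progenitor and mesenchymal cells, had 617, 1040 and 1420 CPM against 1080, 1300, 806 and 1320 CPM, and was not called. By these genes, without correction for GC content and length, the cancer sort was not separated from the TME sort by epithelial identity. The label is used here only for the iRFP+ gate. Trps1 and Esr1 were the only 2 of 13 tested epithelial transcription factors called, both higher in cancer cells, at 0.39 and 0.57. Both calls depended on settings: Esr1 was lost without TME library 4 and without TME library 6, and Trps1 turned to -0.18 after correction for GC content and length.

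Xist, the RNA that coats the inactive X chromosome, differed between the sorts. It stood at 2.89, 8.32 and 9.83 CPM in cancer libraries and at 56.6, 79.2, 78.5 and 55.0 CPM in TME libraries, without overlap.

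The most abundant transcripts were ranked in each sort, leaving out mitochondrially encoded, ribosomal protein and predicted genes. Mitochondrially encoded genes, whose share differed between the sorts, are therefore not part of this ranking. Levels were taken per length, as read counts scaled for exon length and depth (RPKM). Among the genes ranked, the same 8 were the most abundant in the cancer and in the TME libraries. Of the top 500 of each sort, 416 were shared. Spp1, the secreted matrix protein osteopontin, had the highest median RPKM of the genes ranked, at 9341 in cancer and 7677 in TME libraries. In CPM it stood at 11300, 15400 and 19300 in cancer libraries and at 10200, 13300, 12900 and 12400 in TME libraries. These overlapped, with a log2 fold change of 0.33 ± 0.14 (adjusted p = 0.0733). S100a6, B2m, Eef1a1 and Lcn2 followed, none of them called. P4hb, an oxidoreductase of the endoplasmic reticulum, was called higher at 0.29, but not without TME library 4. Actb and Fth1, which encode actin and ferritin heavy chain, were called lower at -0.71 and -0.50.

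Genes of leukocytes were lower in cancer cells almost throughout. Of 14 pan-leukocyte genes tested, 0 were higher and 13 lower in cancer cells, against 20.1% lower among all genes, with a median log2 fold change of -3.14. The summed CPM of these genes in the cancer sort was 14.1% of that in the TME sort. Ptprc, which encodes the leukocyte surface protein CD45, stood at 2.22, 4.51 and 7.61 CPM in cancer libraries against 18.1, 40.5, 45.2 and 29.6 CPM in TME libraries. No cancer library reached a TME library (log2 fold change -2.82 ± 0.27, adjusted p = 7.49e-07). Arhgdib was the 1 pan-leukocyte gene not called.

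Macrophage genes showed the same direction: 14 of 15 tested were lower, 0 higher, with a median of -3.87 and a summed level of 10.01% of the TME sort. Csf1r, the receptor for the macrophage growth factor CSF1, stood at 4.60, 9.33 and 11.8 CPM against 58.1, 81.8, 125 and 72.3 CPM. The groups did not overlap (log2 fold change -3.31 ± 0.23, adjusted p = 3.08e-08). Apoe, a lipid carrier made in quantity by tissue macrophages, stood at 3.97, 7.62 and 16.2 CPM against 213, 223, 208 and 211 CPM, with the TME libraries close together and far above the cancer libraries. C1qa and C1qc, chains of the complement component C1q, fell by 4.76 and 4.75 on the log2 scale. Mertk, a receptor for the uptake of dying cells, was the exception, at 13.2, 15.6 and 19.2 CPM against 10.1, 16.1, 13.5 and 15.4 CPM, overlapping and not called.

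Other myeloid cells were lower too, at lower counts. Of 11 dendritic cell genes tested, 8 were lower and 0 higher, led by the lectin Clec10a at -5.18 ± 0.23. Clec10a stood at 0.807, 1.77 and 3.17 CPM in cancer libraries against 45.1, 66.4, 78.6 and 75.1 CPM in TME libraries, without overlap. Of 11 neutrophil genes tested, 10 were lower. S100a9, a subunit of calprotectin, had 0, 1.10 and 2.61 CPM against 38.1, 41.0, 10.8 and 37.2 CPM, where TME library 9 was the lowest of its group. S100a8, its partner subunit, fell by only 1.18 and its groups overlapped, with 9.83, 15.8 and 21.6 CPM in cancer libraries. Lcn2, a siderophore-binding protein listed with neutrophils, was among the 8 most abundant genes of both sorts in the ranking above and was not called.

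Monocyte genes were split between TME genes and shared genes, with 5 of 9 lower and 0 higher. Ms4a4c, a membrane protein of inflammatory monocytes, stood at 0.480, 0.899 and 1.71 CPM against 9.86, 12.2, 14.6 and 17.4 CPM, without overlap (-3.78 ± 0.27). Fn1 and F13a1, which encode fibronectin and a clotting factor chain, were not called. Because Fn1 was abundant in both sorts, the summed level of this list in cancer cells was 104.1% of that in TME cells although most of its genes were lower.

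The 9 tested mast cell genes all had the lower level in cancer cells. Their median was -3.87 and their summed level 6.80% of that in the TME sort. Tpsb2, a tryptase of mast cell granules (chromosome 17, 25366305 to 25369098, plus strand, mm10), stood at 0, 0.355 and 1.73 CPM against 15.4, 29.9, 28.7 and 20.3 CPM. Lymphocyte genes were scarce in both sorts. Only 7 of 15 T cell genes, 5 of 12 cytotoxic and NK cell genes and 1 of 10 B and plasma cell genes had enough counts to be tested. Cd3e, a chain of the T cell receptor complex, had 0.123, 0.423 and 1.06 CPM against 2.75, 1.96, 6.54 and 1.22 CPM. The groups did not overlap (log2 fold change -2.77 ± 0.49), although the lowest TME value was close to the highest cancer value.

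Genes listed for platelets and red cells had few members tested. Pf4, a chemokine of platelets that macrophages also make, stood at 0.180, 0.376 and 1.21 CPM against 6.07, 7.21, 6.62 and 2.98 CPM (-3.65 ± 0.41). Hba-a1, an alpha globin, stood at 0.135, 1.11 and 3.64 CPM against 33.4, 33.9, 6.59 and 1.31 CPM. Its groups overlapped, since TME library 10 was below the highest cancer library, and it was not called without TME libraries 4 and 6. Of 5 platelet genes 2 were lower, and of 3 erythroid genes 2 were lower. The second erythroid gene, Alas2 of haem synthesis, was lost in 16 of 23 settings, and without TME library 4 or without cancer library 4 only 1 erythroid gene was lower. Adipocyte genes had 1 of 5 tested lower (Cd36) and Schwann and nerve genes 1 of 4 (Mbp), shares near the 20.1% of all genes, and skeletal muscle genes 1 of 1 (Mylpf). Mbp was not called without TME library 6, 9 or 10, and Mylpf not without TME library 4. None of these lists had a gene called higher.

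**Figure D2:**
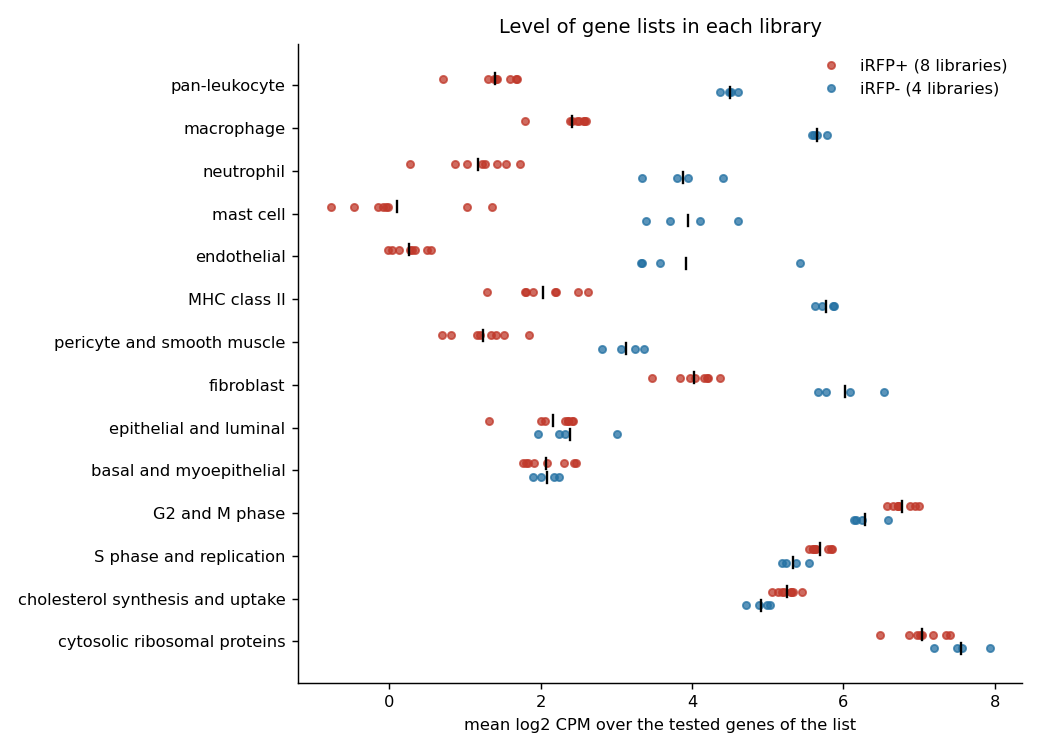
Mean log2 CPM over the tested genes of each list (x axis) in each library, with 1 point for each of the 8 iRFP+ (cancer) and 4 iRFP- (TME) libraries and a black tick at the mean of each sort. Points of the leukocyte, endothelial, class II, pericyte and fibroblast lists do not overlap between the sorts, and those of the epithelial and basal lists do.

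MHC class II genes were on the TME side without exception among those tested. The 10 tested genes of the list all had the lower level in cancer cells, the median log2 fold change was -4.22, and their summed level in cancer cells was 5.79% of that in TME cells. The promoters of 4 of them are shown because the group shares the sequence module named above. Sequences are from RefSeq on GRCm38.p6, contain no annotated exon and run 5′ to 3′ on the gene's strand. Capitals mark the inverted CCAAT motif GATTGG, its reverse complement CCAATC, and ATGATGC, the core of the X2 box as it was searched.
H2-Aa, chr17:34287824-34287933, minus strand: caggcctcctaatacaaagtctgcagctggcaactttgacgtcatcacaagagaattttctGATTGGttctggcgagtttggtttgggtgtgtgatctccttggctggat
H2-Eb1, chr17:34305757-34305866, plus strand: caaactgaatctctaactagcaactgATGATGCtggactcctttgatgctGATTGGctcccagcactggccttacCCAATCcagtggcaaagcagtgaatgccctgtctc
H2-DMb2, chr17:34145119-34145233, plus strand: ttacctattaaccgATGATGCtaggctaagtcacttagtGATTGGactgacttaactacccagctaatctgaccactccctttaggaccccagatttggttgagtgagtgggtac
H2-Ob, chr17:34238795-34238901, plus strand: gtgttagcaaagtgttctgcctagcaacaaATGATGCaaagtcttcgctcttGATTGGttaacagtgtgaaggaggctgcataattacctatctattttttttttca

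In H2-Eb1, H2-DMb2 and H2-Ob the ATGATGC match lay upstream of GATTGG, with starts 24, 25 and 22 bases apart. In the window of H2-Aa only GATTGG was found among the strings searched. Other forms of the X2 box were not searched, so their absence there is not shown. GATTGG, on either strand, was present in the 250 bases upstream of the start in 6 of 7 MHC class II genes with an entry. Among all tested genes with an entry it was present in 2292 of 10616 (21.6%). ATGATGC was present in 4 of 7, against 146 of 10616 (1.38%). The motifs do not overlap each other. A match describes letters and not binding.

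The class II genes with these promoters had separate groups of libraries. H2-Aa, the alpha chain of the classical class II molecule I-A, stood at 24.7, 55.3 and 80.4 CPM in cancer libraries against 1240, 935, 1070 and 1220 CPM in TME libraries (log2 fold change -4.31 ± 0.22, adjusted p = 2.29e-09). H2-Eb1, the beta chain of I-E, stood at 0.246, 0.430 and 0.808 CPM against 15.1, 9.45, 8.11 and 10.5 CPM (-4.50 ± 0.30). H2-DMb2, part of the molecule that loads peptide, stood at 0.111, 0.224 and 0.674 CPM against 5.6, 5.91, 7.12 and 7.66 CPM (-4.43 ± 0.35). None of these groups overlapped. H2-Ob, which restrains peptide loading, fell by 3.27. Ciita, the coactivator that switches class II genes on, differed less than its targets: it stood at 2.82, 3.13 and 5.30 CPM against 5.6, 7.74, 13.7 and 6.76 CPM, a log2 fold change of -1.28 ± 0.24 (adjusted p = 0.000371), and the highest cancer value lay just under the lowest TME value.

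MHC class I, which most cells display, did not follow class II. Of 13 genes tested, 1 was higher and 2 lower, against 18.6% and 20.1% of all genes, and the median was -0.55. H2-K1 had 431, 680 and 1140 CPM in cancer libraries and 918, 997, 835 and 1410 CPM in TME libraries, overlapping and not called (log2 fold change -0.56 ± 0.25, adjusted p = 0.103). Psmb8, an immunoproteasome subunit, and Tap2, a peptide transporter, fell by 1.29 and 0.85. Erap1, which trims peptides, was higher at 0.54, a call lost after correction for GC content and length. Interferon-response genes were split: 10 of 19 tested were lower and 0 higher, with a median of -0.72. Cxcl9, an interferon-gamma-induced chemokine, had the lower level in cancer cells at -3.09 ± 0.22.

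Innate receptors and complement were also mainly on the TME side. Of 15 Fc and Toll-like receptor genes tested, 10 were lower and 1 higher. The higher one was Tlr4, the receptor for lipopolysaccharide, at 31.9, 43.9 and 62.6 CPM in cancer libraries against 15.7, 22.4, 28.6 and 23.4 CPM. Its groups did not overlap (log2 fold change 0.94 ± 0.17, adjusted p = 0.000279). Of 14 complement genes, 8 were lower and 0 higher. Cd55, which protects cells from complement, had no count in the median cancer library and 1.52, 1.18, 1.62 and 6.94 CPM in TME libraries. C3, the central component, stood at 345, 456 and 670 CPM against 325, 421, 448 and 606 CPM and was not called.

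Chemokines were mainly TME genes, while several CXC members were shared. Of 21 CC and CXC chemokines tested, 16 had the lower level in cancer cells and 0 the higher, with a median of -3.09. Ccl2, which attracts monocytes, stood at 2.59, 4.17 and 7.54 CPM against 49.5, 61.0, 56.7 and 50.4 CPM, without overlap (-3.61 ± 0.20). Ccl8 stood at 0.363, 1.79 and 4.94 CPM against 59.9, 57.3, 51.6 and 55.1 CPM, also without overlap (-4.66 ± 0.37). Cxcl1, a neutrophil attractant, stood at 45.5, 112 and 188 CPM against 70.1, 128, 27.2 and 195 CPM, and its groups overlapped (adjusted p = 0.850). Cxcl5, Cxcl10, Cxcl12 and Cx3cl1 were not called either. Of 10 chemokine receptors tested, 8 were lower and 0 higher, among them Ccr2, Cxcr4 and Cx3cr1.

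Vascular genes were among those with the lowest fold changes. All 14 tested endothelial genes fell on the TME side, and their median log2 fold change was -4.23. Tie1, an endothelial receptor kinase (chromosome 4, 118471191 to 118490061, minus strand), stood at 0.225, 0.351 and 0.778 CPM in cancer libraries against 46.6, 13.6, 12.1 and 10.7 CPM in TME libraries (log2 fold change -5.70 ± 0.39, adjusted p = 6.72e-09). Gpihbp1, which holds lipoprotein lipase on capillary walls (chromosome 15, 75596628 to 75599481, plus strand), had 0, 0 and 0.0898 CPM against 21.3, 4.32, 3.42 and 3.47 CPM. Pecam1, the adhesion molecule CD31, had 0.420, 1.17 and 2.17 CPM against 59.4, 15.3, 11.1 and 11.4 CPM. TME library 4 was well above the other TME libraries for each of these genes. Without TME library 4, 13 of the 14 genes were lower, with a median of -3.21, Tie1 at -4.95 and Gpihbp1 at -6.60. Library 4 is also the one with 42.2% mitochondrial counts, whose part in the result was not tested.

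Flt1 was the endothelial gene that did not follow the rest. This VEGF receptor stood at 267, 316 and 347 CPM in cancer libraries and at 435, 328, 360 and 376 CPM in TME libraries, overlapping, with a log2 fold change of -0.25 ± 0.10 (adjusted p = 0.0442), and it was not called without TME library 4 (-0.18). Transcription factors of endothelium were nearly absent from the cancer sort. Erg, Sox17 and Sox18 fell by 5.14, 4.93 and 5.55, and by 3.87, 3.62 and 4.29 without TME library 4. Foxf1, Ets1 and Twist1 were the 3 of 13 endothelial and stromal factors called higher, at 0.43, 0.39 and 0.41. Twist1, a factor of mesenchymal cells, was lost in 9 of 23 settings, without TME library 4 or 6 or cancer library 3, 5 or 7 among them. Ets1 was not called without TME library 6 or after correction for GC content and length, and without TME libraries 4 and 6 none of the list was called higher.

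Both tested genes of lymphatic endothelium were lower. Flt4, the VEGF-C receptor, stood at 0, 0.0371 and 0.200 CPM against 8.35, 1.34, 1.80 and 2.07 CPM. Pdpn, podoplanin, which fibroblasts and macrophages also make, stood at 0.704, 1.08 and 1.56 CPM against 10.3, 10.1, 7.58 and 13.7 CPM (-3.19 ± 0.23). The defining factor Prox1 and the receptor Lyve1 did not pass the filter on low counts.

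Fibroblast genes divided into those lower in the cancer sort and those not called. Of 14 tested, 9 were lower, 0 higher and 5 not called, with a median of -1.88. Col1a2, a chain of type I collagen, stood at 5.85, 9.22 and 18.1 CPM in cancer libraries against 174, 167, 241 and 544 CPM in TME libraries, without overlap (-4.77 ± 0.40, adjusted p = 5.67e-06). Fbln1, Mfap5 and Lum, matrix proteins of connective tissue, fell by 4.18, 3.95 and 3.78. The 5 not called were Dcn, Pdgfra, Dpt, Col6a3 and Fap. Dpt, the matrix protein dermatopontin, stood at 126, 182 and 249 CPM against 205, 176, 172 and 228 CPM. Of 9 pericyte and smooth muscle genes tested, 7 were lower, led by Acta2, smooth muscle actin, with 0, 0.356 and 0.933 CPM against 9.68, 7.46, 9.71 and 13.3 CPM.

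**Figure D3:**
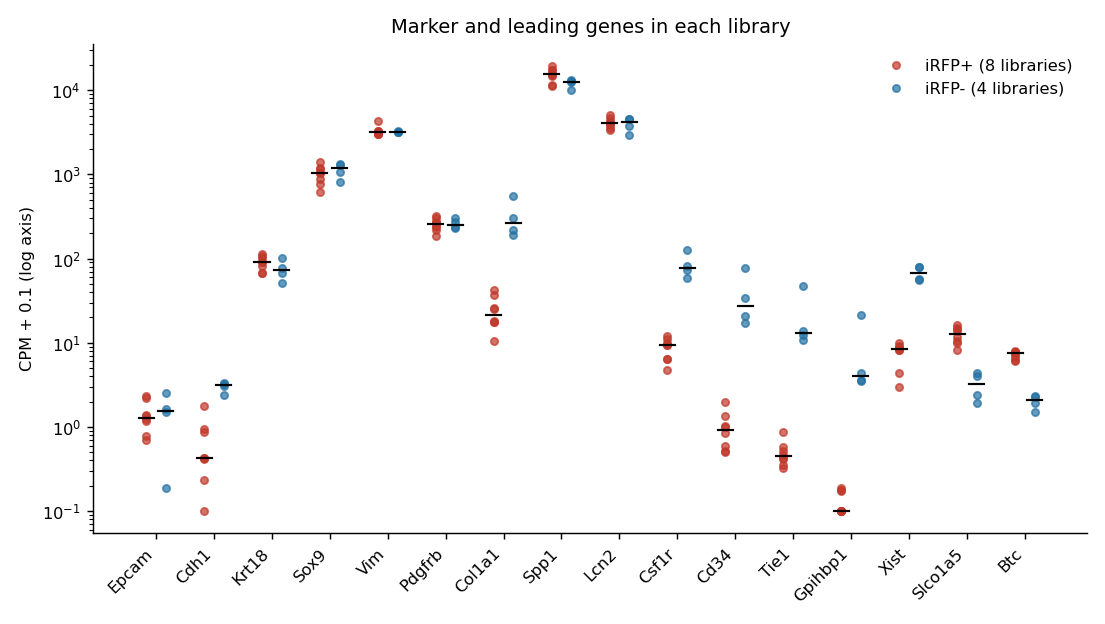
CPM plus 0.1 on a log axis for marker and leading genes, with 1 point for each of the 8 iRFP+ (cancer) and 4 iRFP- (TME) libraries and a black bar at the median of each sort. Csf1r, Cd34, Tie1, Gpihbp1, Xist, Slco1a5 and Btc form clusters that do not overlap between the sorts, while Epcam, Krt18, Sox9, Vim and Pdgfrb overlap.

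The collagens showed the same division within a single gene family. Of 20 tested, 11 were lower and 1 higher, with a median of -0.40. Col4a1, a basement membrane chain, stood at 6.55, 11.2 and 18.3 CPM in cancer libraries against 241, 74.6, 68.8 and 55.5 CPM in TME libraries, and fell by 3.30. Col4a5, another chain of the same collagen type, went the other way, at 384, 410 and 536 CPM against 189, 277, 286 and 275 CPM. Neither gene's groups overlapped, and Col4a5 was called higher (0.74 ± 0.12, adjusted p = 0.000101). Col6a1 had 1250, 1600 and 1920 CPM against 1660, 1880, 1570 and 1740 CPM and was not called.

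Integrins, the receptors for matrix, were called in both directions, with 7 of 20 higher and 8 lower. The shares over all genes were 18.6% higher and 20.1% lower. Those higher were Itgav, Itgb8, Itga2, Itga1, Itga6, Itga8 and Itgb1. Itgav, the alpha chain of the vitronectin receptors, stood at 627, 811 and 1150 CPM against 322, 434, 474 and 403 CPM (1.02 ± 0.15). Itgb8, a beta chain that pairs with it to activate latent TGF-beta, stood at 30.0, 36.8 and 49.8 CPM against 16.8, 16.6, 15.4 and 17.6 CPM (1.2 ± 0.14). Neither overlapped between the sorts. The higher count was 4 after correction for GC content and length, and 3 of 21 without TME libraries 4 and 6. Itga8 and Itgb1 were not called without TME library 4. The lower group held the leukocyte chains Itgam, Itgax and Itgal, at -3.27, -3.26 and -2.70, with Itga9, Itga4, Itgb7, Itgb2 and Itgb5. Among matrix proteases and inhibitors, 3 of 20 were higher and 6 lower. Mmp14, a membrane-bound collagenase, stood at 2.57, 5.02 and 7.12 CPM against 98.2, 70.8, 105 and 118 CPM and fell by 4.29.

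Genes of cell junctions and of epithelial-mesenchymal transition were also called in both directions. Among all genes, 18.6% were higher and 20.1% lower. Of 15 tested junction genes 2 were higher and 5 lower, a count of 2 and 3 without TME library 4. Jup, the desmosomal protein plakoglobin, stood at 27.3, 40.2 and 50.2 CPM against 67.1, 46.1, 50.3 and 56.9 CPM (-0.47 ± 0.16), with overlap. Of 13 transition factors and mesenchymal genes 2 were higher and 5 lower. Cdh2, which encodes N-cadherin, stood at 107, 121 and 132 CPM against 73.2, 88.2, 96.2 and 106 CPM (0.40 ± 0.10), just separate. Tgfbi, a matrix protein induced by TGF-beta, stood at 21.9, 27.8 and 39.2 CPM against 200, 182, 157 and 165 CPM (-2.57 ± 0.13). Basal and myoepithelial genes had 4 tested of 10, with 1 higher and 1 lower. The lower gene was Trp63 at -0.41, which was lost in 8 of 23 settings, without cancer library 2, 3, 7 or 9 or TME library 9 or 10 among them. Of the 10 milk and secretory genes 2 were tested, with Stat5a lower at -0.43. The caseins Csn1s1, Csn2 and Csn3 did not pass the filter.

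The genes that led the cancer side had modest differences. Slco1a5, an organic anion transporter (chromosome 6, 142234227 to 142322981, minus strand), stood at 8.17, 12.7 and 16.2 CPM in cancer libraries against 2.28, 4.24, 3.93 and 1.85 CPM in TME libraries (1.99 ± 0.25, adjusted p = 4.25e-06). Btc, the EGF-family ligand betacellulin (chromosome 5, 91357261 to 91402994, minus strand), stood at 6.04, 7.37 and 7.94 CPM against 2.18, 1.39, 1.80 and 2.21 CPM (1.92 ± 0.21, adjusted p = 9.04e-07). Mmp10, the protease stromelysin-2 (chromosome 9, 7502352 to 7510240, plus strand), stood at 15.5, 17.9 and 28.1 CPM against 6.45, 3.38, 5.22 and 8.48 CPM (1.68 ± 0.22). No group overlapped for these 3 genes. Arhgap5, a GTPase-activating protein of small GTPases, stood at 92.8, 121 and 181 CPM against 46.8, 41.1, 45.3 and 40.8 CPM (1.51 ± 0.14, adjusted p = 1.12e-07). For the 12 genes ranked highest, the mean TME level was 24.7% to 35.2% of the mean cancer level. All 12 were still called without TME library 4, and 9 of them stayed in the ranking of the top 12, against 4 of 12 on the TME side.

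Few of the called genes had no count in 1 of the sorts. Genes that did not pass the filter or were not called were left out of this count. Sncaip, which encodes a synuclein-binding protein, had no count in any cancer library and 4.17, 0.489, 0.735 and 0.676 CPM in TME libraries, at least 85.2-fold higher there against a floor of 3 counts over the group, and at least 35.5-fold without TME library 4. Dynap, a membrane protein gene, had no count in any TME library and 70 counts over the cancer libraries, at least 12.7-fold higher against the same floor.

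Cell cycle genes of G2 and M phase were mostly on the cancer side. Of 24 tested, 14 were higher and 1 lower, with a median of 0.43, against 18.6% higher among all genes. Ect2, which positions the cleavage furrow, stood at 78.6, 99.9 and 124 CPM in cancer libraries against 32.2, 34.1, 55.2 and 30.5 CPM in TME libraries (1.42 ± 0.16). Anln, a scaffold of the contractile ring, stood at 303, 356 and 418 CPM against 155, 154, 226 and 170 CPM (1.02 ± 0.12). Hmmr, a spindle protein, stood at 49.3, 57.6 and 73.8 CPM against 28.0, 26.0, 44.3 and 27.5 CPM (0.92 ± 0.15). The groups did not overlap for any of the 3, and TME library 9 was the nearest to the cancer libraries each time. Birc5, the spindle and survival protein survivin, was the 1 gene in the opposite direction, at -0.42 ± 0.12 (adjusted p = 0.00833). Without TME library 4 the counts were 10 higher and 1 lower, and without TME libraries 4 and 6 they were 9 and 0. Mki67, the usual marker of cycling cells, stood at 138, 182 and 213 CPM against 151, 141, 156 and 150 CPM and was not called.

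Promoters of mitotic genes are known for repeated CCAAT boxes, and those of Hmmr and Ect2 are shown as the members with several matches. The capitals again mark GATTGG and its reverse complement CCAATC, in RefSeq sequence on GRCm38.p6.
Hmmr, chr11:40733438-40733617, minus strand: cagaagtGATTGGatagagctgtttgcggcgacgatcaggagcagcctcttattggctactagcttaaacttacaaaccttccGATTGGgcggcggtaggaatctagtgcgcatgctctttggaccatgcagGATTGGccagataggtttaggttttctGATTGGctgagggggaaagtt
Ect2, chr3:27153879-27154018, minus strand: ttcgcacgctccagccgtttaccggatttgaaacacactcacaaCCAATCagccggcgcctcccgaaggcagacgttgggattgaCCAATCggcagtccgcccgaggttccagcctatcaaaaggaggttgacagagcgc

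GATTGG was present on either strand in 14 of 21 G2 and M phase promoters with an entry, and in 12 of 16 cholesterol promoters, against the 21.6% of all tested genes given above. In macrophage genes it was present in 3 of 10 and in endothelial genes in 1 of 9. ATGATGC was present in 1 of 21 G2 and M phase promoters. The letters shared by class II and mitotic promoters therefore occur in groups that moved in opposite directions.

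Of 24 replication and S phase genes 10 were higher, against 18.6% of all genes, 0 were lower and 14 were not called, with a median of 0.30. Rrm2, a subunit of the enzyme that makes deoxynucleotides, stood at 232, 286 and 302 CPM against 134, 130, 169 and 138 CPM (0.95 ± 0.11). Ccne2, cyclin E2, stood at 16.4, 22.7 and 31.0 CPM against 10.2, 8.07, 12.9 and 12 CPM (1.07 ± 0.16). The groups were separate for both genes. Without TME libraries 4 and 6, 6 S phase genes were higher.

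Cholesterol synthesis and uptake was the metabolic list with the most genes higher in cancer cells: 13 of 23 were higher and 4 lower, with a median of 0.45. Without TME libraries 4 and 6 the counts were 9 and 2. After correction for GC content and length they were 10 and 2, with a median of 0.30. Hmgcs1, an early enzyme of the pathway, stood at 113, 137 and 192 CPM against 85.0, 78.3, 92.1 and 96.0 CPM (0.70). Idi1, Fdps, Nsdhl, Sc5d and Sqle, enzymes along the pathway, were higher at 1.41, 1.05, 0.86, 0.80 and 0.61. Pmvk, Mvk, Ebp and Fdft1, enzymes of the same pathway, were lower at -0.90, -0.66, -0.51 and -0.38. Fatty acid synthesis had 7 of 18 genes higher and 2 lower, but 2 higher and 1 lower without TME libraries 4 and 6. Its median of 0.29 was 0.02 after correction for GC content and length. Acsl4, which activates polyunsaturated fatty acids, stood at 517, 640 and 1080 CPM against 258, 303, 401 and 327 CPM (1.12 ± 0.17).

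Glycolysis as a whole did not separate the sorts, with 2 of 18 genes higher and 3 lower. The shares over all genes were 18.6% higher and 20.1% lower. The lactate exporter Slc16a3 stood at 0.808, 1.32 and 2.63 CPM against 8.73, 9.86, 9.08 and 11 CPM and fell by 2.62, while the related transporter Slc16a1 was higher at 0.57. Hypoxia targets were mixed, with 4 of 14 higher and 3 lower. Bnip3, a mitophagy receptor, stood at 49.9, 68.4 and 84.3 CPM against 22.3, 30.6, 42.8 and 24.4 CPM (1.16 ± 0.17). Adm, the vasodilator peptide adrenomedullin, stood at 0, 0.171 and 0.584 CPM against 8.16, 3.34, 3.83 and 3.29 CPM (-4.28 ± 0.55). Both genes' groups were separate, in opposite directions.

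Signalling genes with the higher level in cancer cells included Hippo pathway members, some growth factor receptors and ligands for NK cells. The shares over all genes were 18.6% higher and 20.1% lower. Of 15 Hippo genes, 6 were higher and 1 lower, and 3 were higher without TME libraries 4 and 6. Wwtr1, the coactivator TAZ, stood at 458, 613 and 1000 CPM against 266, 273, 363 and 261 CPM (1.17 ± 0.19). Receptor tyrosine kinases had 4 of 15 genes higher and 3 lower, with a median of -0.03. Without TME libraries 4 and 6 the counts were 1 and 2. Met, the receptor for hepatocyte growth factor, stood at 162, 202 and 290 CPM against 87.4, 97.3, 134 and 110 CPM (0.95 ± 0.15). Neither Wwtr1 nor Met overlapped between the sorts. TGF-beta ligands, receptors and targets had 6 of 20 genes higher and 2 lower, and 3 and 2 without TME library 4. Tgfbr1, the type I receptor, stood at 95.8, 116 and 136 CPM against 62.5, 74.8, 95.6 and 69.3 CPM (0.61 ± 0.12), a call lost after correction for GC content and length. The EGF family and its receptors had 1 of 13 higher, Btc, and 1 lower, Erbb2 at -0.33. The NKG2D ligands, stress-induced surface proteins that NK cells recognise, had 3 tested of 8 listed, and all 3 were higher. Ulbp1 stood at 9.85, 20.7 and 26.1 CPM against 6.64, 5.34, 9.38 and 4.46 CPM (1.56 ± 0.27, adjusted p = 0.000276), and H60b was higher at 1.18. H60c, at 1.76, was lost in 11 of 22 alternative settings, leaving out TME library 4, 9 or 10 among them.

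Checkpoint genes were mainly TME genes, with 10 of 17 lower and 2 higher. Cd86, the costimulatory ligand of antigen-presenting cells, stood at 0.222, 1.35 and 2.65 CPM against 18.0, 15.2, 16.7 and 14.2 CPM (-3.63 ± 0.33). The 2 higher were Vtcn1, the inhibitory ligand B7-H4, at 2.20 and under 2.2 CPM in every library, and Pvr, at 0.40, which was not called without TME library 4 or without TME library 9. Cd274, the ligand PD-L1, was lower at -0.51 with an adjusted p of 0.0498, and this call was lost in 14 of 23 alternative settings, leaving out TME library 6 or 10 among them. Transcription factors of blood cells were low in the cancer sort, with 9 of 15 lower. Spi1, the myeloid factor PU.1, stood at 0.0371, 0.677 and 1.2 CPM against 18.8, 11.3, 16.1 and 9.42 CPM (-4.42 ± 0.45). Runx1 and Mitf were higher at 0.47 each, and Mitf was not called without TME library 4 or without TME library 10.

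Housekeeping groups were read with the mitochondrial share in mind, and beside the 18.6% higher and 20.1% lower of all genes. All 14 tested mitochondrially encoded genes had the lower level in cancer cells, at a median of -3.22. Without TME library 4, 12 were lower with a median of -1.69, and without TME libraries 4 and 6, 8 were lower with a median of -0.88. Cytosolic ribosomal protein genes had 18 of 28 lower and 0 higher, at a median of -0.44. That count fell to 7 lower and 1 higher without TME library 4, and the correction for GC content and length left 8 lower and 4 higher. Immediate early genes, which respond within minutes to handling and to growth factors, had 6 of 20 lower and 0 higher, 4 lower without TME library 4 and 1 lower after the correction. Lysosomal genes were called both ways, with 5 of 21 higher and 12 lower. Ctss, a cathepsin of antigen-presenting cells, stood at 8.34, 19.4 and 24.6 CPM against 289, 305, 336 and 325 CPM. Lamp2, a lysosomal membrane protein, stood at 605, 685 and 743 CPM against 356, 444, 467 and 483 CPM and was higher at 0.61.

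Nuclear-encoded genes of the respiratory chain had 9 of 26 lower and 2 higher, against 20.1% and 18.6% of all genes, with a median of -0.22. After correction for GC content and length 4 were lower and 5 higher. Ndufb3, a subunit of complex I, stood at 11.4, 14.8 and 20.8 CPM against 51.1, 33.2, 22.3 and 43.7 CPM (-1.24 ± 0.19). Uqcrc2, a core subunit of complex III, stood at 83.4, 96.9 and 148 CPM against 50.9, 43.1, 76.4 and 55.4 CPM (0.85 ± 0.16). Each was separate between the sorts, in opposite directions.

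Except for heat shock, the stress and biosynthesis lists were called in both directions, at shares near the 38.7% of all genes. Ribosome biogenesis had 5 of 20 higher and 3 lower, the amino acid response 5 and 4 of 20, the unfolded protein response 4 and 2 of 15, heat shock 0 and 1 of 13, and antioxidant genes 4 and 4 of 17. After correction for GC content and length the unfolded protein response had 0 higher and 1 lower. Without TME library 4 the amino acid response had 3 higher and 2 lower, and ribosome biogenesis 3 and 2. Gclm, which limits glutathione synthesis with Gclc, stood at 79.1, 95.3 and 100 CPM against 55.0, 40.9, 59.0 and 56.0 CPM (0.81 ± 0.11), and Gclc was higher at 0.49. Gstm1, a glutathione transferase, stood at 1.66, 3.22 and 5.37 CPM against 10.9, 6.68, 6.13 and 8.48 CPM (-1.22 ± 0.25). Utp20, a factor for the small ribosomal subunit, stood at 80.6, 100 and 137 CPM against 51.9, 53.3, 66.2 and 58.3 CPM (0.81 ± 0.13). None of these groups overlapped.

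Ligands and their receptors were then compared across the sorts. Of 46 pairs listed, 7 had both members lower in cancer cells, the largest class with both called. In 5 the ligand was lower and the receptor higher, and in 4 the reverse. In 6 neither member was called. For single genes the shares over all tested were 18.6% higher and 20.1% lower. Il1b, the inflammatory cytokine, stood at 2.47, 6.65 and 8.19 CPM in cancer libraries against 69.9, 74.5, 25.4 and 75 CPM in TME libraries, and its receptor Il1r1 was higher in cancer cells at 0.30. Osm with Osmr, Gas6 with Axl, Dll4 with Notch1 and Tgfb1 with Tgfbr2 had the same arrangement. Gas6 stood at 4.08, 5.83 and 7.52 CPM against 22.1, 30.4, 29.9 and 27.2 CPM, and Axl at 636, 691 and 767 CPM against 442, 476, 587 and 565 CPM. Both members of that pair were separate between the sorts. The higher receptor calls were small: Il1r1 was lost in 6 of 23 settings, and turned to -0.14 after correction for GC content and length, and Notch1 and Tgfbr2 were lost in 9 each. Leaving out a single library ended these calls for several libraries: TME 4, 9 or 10 for Il1r1, TME 4, 6 or 10 and cancer 2 or 4 for Notch1, and TME 4, 6 or 10 and cancer 3 or 9 for Tgfbr2. The ligand Tgfb1 lost its call in 9 of 23 settings as well, without cancer library 2, 3 or 10 or TME library 9 or 10 among them.

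The reverse arrangement held for Kitl and Kit, Csf3 and Csf3r, Ulbp1 and Klrk1, and Jag1 and Notch3. Kitl, the growth factor for mast cells, stood at 187, 260 and 314 CPM in cancer libraries against 103, 175, 175 and 164 CPM in TME libraries (0.74 ± 0.14). Its receptor Kit stood at 0.156, 0.672 and 1.17 CPM against 8.16, 7.09, 12.4 and 6.49 CPM (-3.71 ± 0.36). Csf3, a growth factor of neutrophils, was higher at 1.05 ± 0.34 but not called without TME library 9 or without TME library 10. Jag1, a Notch ligand, was higher at 0.33 but not called without TME library 4 or without TME library 9. Neither Kitl nor Kit overlapped between the sorts, and after correction for GC content and length Kitl was at 0.25 and no longer called. Klrk1, which encodes NKG2D itself, stood at 0.0449, 0.139 and 0.605 CPM against 2.75, 3.22, 2.99 and 3.25 CPM, and both members of its pair with Ulbp1 were called in every alternative.

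In 10 pairs the receptor was lower and the ligand was not called. Csf1, the macrophage growth factor, was at 0.08 with its receptor Csf1r at -3.31. Vegfa, the main growth factor for vessels, was at 0.01 with its receptor Kdr at -4.19. Cx3cl1, a membrane-bound chemokine, stood at 176, 228 and 266 CPM against 224, 225, 211 and 248 CPM, with its receptor Cx3cr1 at -3.99. In 4 pairs the receptor was higher and the ligand not called. Cd44, a receptor for osteopontin, stood at 867, 927 and 1040 CPM against 540, 563, 579 and 554 CPM (0.77 ± 0.09), with Spp1 not called.

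**Figure D4:**
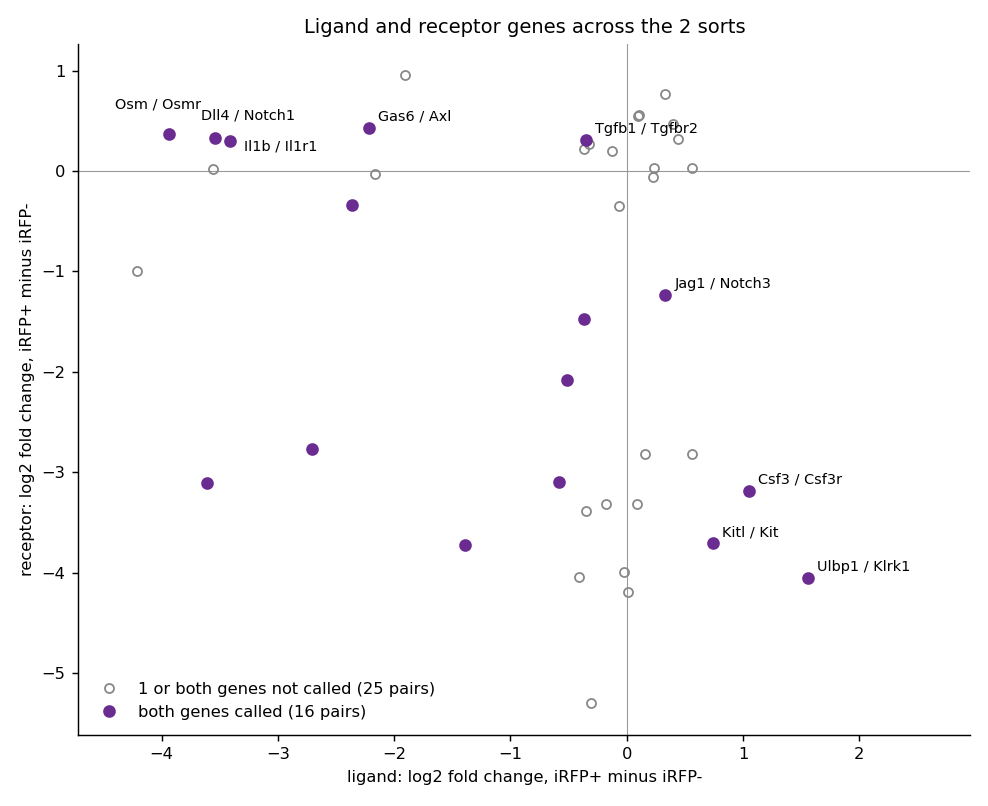
Log2 fold change of the ligand (x axis) and of its receptor (y axis), cancer relative to TME, for the pairs with both members tested. Filled points mark the 16 pairs with both members called, of which the 9 in opposite directions are named. The open points in the lower middle are receptors well below 0 whose ligands lie near 0, Csf1r and Kdr among them.

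The difference between the sorts varied with the base composition of genes. Across 8141 genes whose mean log2 CPM reached 4, the correlation of the log2 fold change with GC content was -0.416 and with log2 length 0.389, both across genes, which are not independent and share the same libraries. In the quintile of genes with the lowest GC content 63.0% were higher and 5.28% lower, and in the quintile with the highest 3.75% were higher and 41.8% lower. The slope against GC content, in log2 units per 10 percentage points, ran from -0.35 to 0.093 in the cancer libraries and from 0.186 to 0.346 in the TME libraries. The sorts did not overlap, so base composition and sort cannot be told apart in these libraries. With GC content and length fitted as splines, 1723 genes were higher and 2686 lower. Of these, 1271 and 2082 were among the 2988 higher and 3238 lower without the splines.

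Genes of chromosomes 12 and X had the highest medians. The median log2 fold change was 0.38 on chromosome 12, with 56.5% of 308 genes higher, and 0.35 on chromosome X, with 53.4% of 266 genes higher. Over all 8143 genes of that level the median was 0.08 and 30.0% (29.98) were higher. Chromosomes 17 and 7 had the lowest medians, -0.15 and -0.11. After the correction for GC content and length, chromosome 12 was at 0.20 and chromosome X at 0.13, so each median moved with the correction, in which the parts of base composition and length were not separated.

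**Figure D5:**
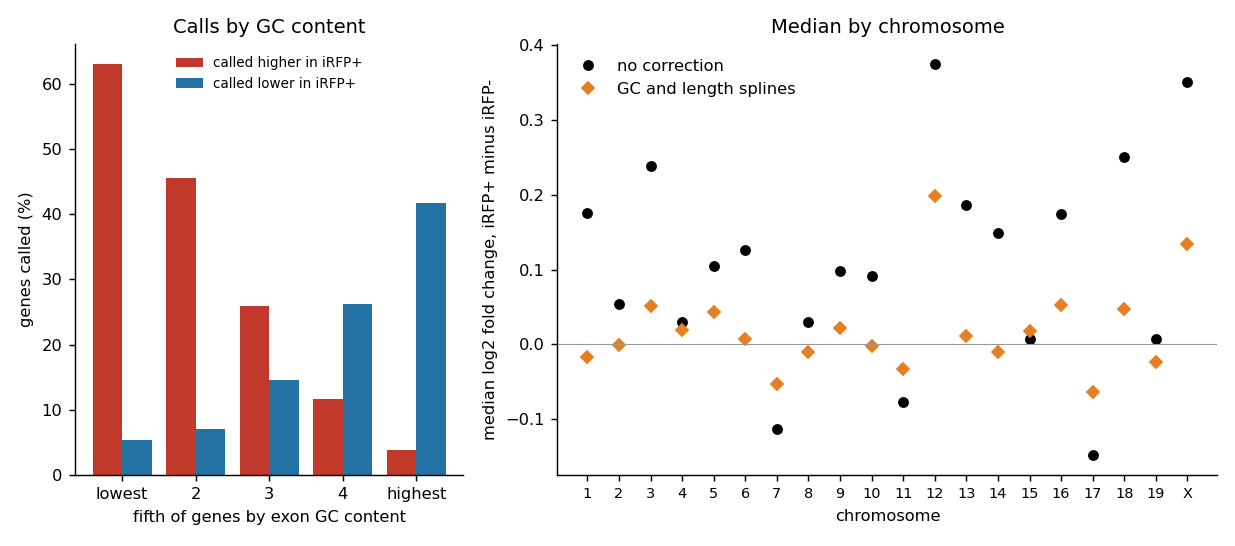
Left, percentage of genes called higher or lower in cancer cells in each quintile of genes by exon GC content; right, the median log2 fold change of each chromosome without correction and with GC and length splines. The share of higher genes drops from 63.0% in the lowest quintile to 3.75% in the highest, and chromosomes 12 and X have the highest medians with and without the correction.

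The same contrast can be drawn from the exercised mice, whose libraries share no sample with the sedentary ones. The test of the difference between the contrasts called 0 of 17503 genes (0.0%), with 1316 at an unadjusted p under 0.05 by edgeR. DESeq2 called 2 genes. In the exercised libraries all 14 pan-leukocyte genes were lower in the cancer sort, at a median of -4.01, and 13 of 14 endothelial genes were lower, with a median of -3.72. Of the G2 and M phase genes, 17 were higher and 0 lower there, with a median of 0.73. Other lists had fewer calls in the exercised libraries: 4 of 15 mitochondrially encoded genes were lower (median -1.05), 1 of 5 NKG2D ligands was higher (median 0.27) and 0 of 4 erythroid genes were called. No gene of these lists passed the test of the difference. Calls of a difference between the contrasts thus depended on the model, and the lack of a call does not show that they are equal.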

How the data were processed

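The authors deposited 1 table of read counts per gene symbol, with 48397 symbols and 23 columns, all of which were used. The submitters' processing notes name STAR, featureCounts and mm10. Strand setting, versions and filters are not stated in the labels, so overlapping and antisense genes are uncertain. Trizol extraction and a KAPA mRNA-Seq kit were used, per the labels' protocols. The 12 sedentary libraries were fitted with edgeR 4.0.16 in R 4.3.3: filterByExpr, TMM scaling, robust quasi-likelihood test, Benjamini-Hochberg adjustment, threshold 0.05. Symbols without any count numbered 16422, and 16071 passed the filter. The difference between the sedentary and the exercised contrast was tested as an interaction over all 23 libraries. Of the symbols, 46467 (96.0%) matched GENCODE M21, which gave coordinates (mm10), exon lengths for RPKM and GC content. Promoters were RefSeq's, 250 bases upstream to 50 downstream of the start, and motifs were searched in the 250 upstream bases only. The fit was tested on simulated counts. No pair of libraries of 1 sort agreed within sampling noise (lowest chi-square per gene 14.5). DESeq2 1.42.0, limma 3.58.1 voom and other settings were alternatives. The members, gene lists and pairs were chosen with earlier results of these data known. Genes were named by rank (12 each way and a mean log2 CPM of 1 or more), by list and by pair, plus 19 marker genes. Reads carry no molecular identifiers, so floors cover counting error only. A few genes of the lists are not reported here.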

Additional observations from a re-analysis of the deposited data

Results flagged for a closer look

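Of 190 groups of values examined for a single library far from the rest, 23 had one. The groups share libraries, and some genes were ranked by their fold change in these data, so this count cannot be set against a chance rate. The endothelial genes stood out for TME library 4. Its mean over the endothelial list was 5.426 log2 CPM, against 3.577 for the next library. In the same library Gpihbp1 (21.34 CPM), Snx20 (11.38), Tie1 (46.57), Sox18 (25.04), Robo4 (22.86), Igfbp3 (199.1), Cldn5 (40.69), Pecam1 (59.38) and Kdr (59.76) were each far above the other 3 TME libraries. This library also had the highest mitochondrial share, whose part in these values was not tested.

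Cancer library 4 was far below the other cancer libraries for the mean level of the epithelial and luminal list (1.318 log2 CPM), matrix proteases (4.39), TGF-beta genes (5.756) and epithelial transcription factors (4.088). It was far above them for Mmp10 (28.09 CPM), Arhgap5 (180.8 CPM) and Tex15 (7.664 CPM). Cancer library 3 was the lowest for the pan-leukocyte list (0.7108 log2 CPM) and the macrophage list (1.796 log2 CPM). Cancer library 7 had the highest mitochondrial share of its sort (3.895%) and the highest Vim (4306 CPM). Tie1 was highest in cancer library 6 (0.7778 CPM) and Robo4 in cancer library 9 (0.8824 CPM), both far below every TME library.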

How the results depend on the processing

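The contrast was refitted under 23 alternatives. Of 291 named genes called, 192 kept their call and direction in all of them, 98 lost the call in at least 1 and 8 changed sign, where 1 gene can do both. Those 8 changed sign only with GC and length splines: Ctsl -0.0053, Ddit4 0.0008, Il1r1 -0.143, Polr1c 0.1071, Skil -0.0782, Slc7a11 -0.0087, Smad2 -0.0493 and Trps1 -0.1779, and the cause was not tested. Without TME libraries 4 and 6, which leaves 2 TME libraries, 3483 genes were called, 1561 higher and 1922 lower. With GC and length splines 1723 were higher, 197 of them past 2-fold, against 2988 and 310. Only 1271 of the 2988 genes higher without splines, and 2082 of the 3238 lower, were also called with them. Without a filter on low counts, which tests more genes, 2188 were more than 2-fold lower and 1751 more than 4-fold lower, against 1390 and 889. The number higher past 4-fold at a mean log2 CPM of at least 1, which was 0, became 4 with a replicate block, 1 without mitochondrial genes, 2 with limma voom, 4 without TME libraries 4 and 6, 1 without TME library 4 and cancer library 4, 1 with all 23 libraries and 1 with GC and length splines. Leaving out 1 library at a time gave 0 to 4. The total with RLE scaling, DESeq2 and voom stayed within 1.5 times.

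The replicate numbers do not state a shared animal, and the deviations of same-numbered cancer and TME libraries correlated at -0.083, 0.022, 0.035 and 0.054. With the replicate block, 2577 genes were higher and 2796 lower, and the difference from the exercised contrast called 14 genes. DESeq2 called 2 there. At these depths the lowest levels above 0 rest on single counts in a library, so a difference between 2 such genes was not detectable.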
